A study of Mus musculus with 16 samples.

Results

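The ribosome biogenesis genes studied here are 45 genes of the nucleolus and of ribosome assembly, followed in cultured mouse macrophages derived from bone marrow (BMDMs). They were chosen by name and matched by symbol, and all 45 were found among the 55487 genes counted. All 45 also passed the filter on low counts, as did 12372 genes in all. The BMDMs came from wild-type (WT) Balb/c mice aged 8 weeks, and 16 samples in 6 groups were sequenced.

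The groups differed in medium and inhibitor. DMEM is the plain medium (2 samples), and DMEM + Rux is the same with ruxolitinib (3 samples). CM is medium conditioned by 4T1 cells, a mouse mammary tumor line (3 samples). CM + Rux 4 h (3 samples) and CM + Rux 2 h (2 samples) had CM with 0.5 µM ruxolitinib, and CM + Rux + IKK-16 (3 samples) had 0.8 µM IKK-16 as well. Ruxolitinib blocks JAK1 and JAK2. IKK-16 blocks IKK, the kinase upstream of NF-κB. The BMDMs were starved of serum, with ruxolitinib where it was used, before CM was added. To which step the 2 h of the label refers is not stated, nor are the dose and time of ruxolitinib in DMEM. DMEM holds the samples numbered 1 and 2, and CM + Rux 2 h those numbered 2 and 3.

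Ribosome biogenesis begins in the nucleolus, where RNA polymerase I transcribes a long precursor of ribosomal RNA. Small nucleolar ribonucleoproteins (snoRNPs) modify the precursor, processing complexes cut it, and assembly factors guide the small (40S) and large (60S) subunits to the cytoplasm. These genes are known to respond together to growth signals, and MYC is among their best known activators.

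The libraries held 18449388 to 46215853 counted fragments, and replicates differed by more than counting noise (chi-square over degrees of freedom between 13.2 and 50.3 in 14 pairs), so none was a copy. Macrophage genes were high in every sample, with Lyz2 at 28542 to 38036 and Csf1r at 2253 to 3599 CPM. CPM here is a count relative to the library's size, scaled by relative log expression (RLE). Of 7 epithelial markers that tumor cells could bring, 0 passed the filter, and they summed to at most 1.45 CPM. The sums were 0.236 to 3.15 CPM for 6 neutrophil markers, 4.81 to 13.1 CPM for 6 T and NK cell markers, 0.122 to 1.23 CPM for 4 B cell markers and 5.74 to 20.9 CPM for 5 fibroblast markers. The 4 dendritic cell markers summed to 8.53 and 12.7 CPM in the 2 h samples, with Flt3 at 0, and to 0.785 to 2.28 CPM elsewhere. Their part in the 2 h results was not tested. In bulk RNA, fewer cells of a type and less RNA per cell cannot be told apart.

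Promoters came from RefSeq (GRCm38.p6), where 39 of the 45 genes were matched. Rrp1b and Heatr1 are shown because they rose most in CM, Nop58 as one of the box C/D genes that rose, Wdr12 because it fell in CM, and Rrn3 and Nop2, chosen after the sequences were read, because they hold the MYC E-box before the start. Each stretch is the longest part outside annotated exons within 250 bases before the RefSeq start, written 5′ to 3′. Capitals mark the MYC E-box (CACGTG), the SP1 box (GGGCGG or CCGCCC) and the ETS box (CCGGAAG or CTTCCGG).
Rrp1b, chr17:32035912-32036099, plus strand: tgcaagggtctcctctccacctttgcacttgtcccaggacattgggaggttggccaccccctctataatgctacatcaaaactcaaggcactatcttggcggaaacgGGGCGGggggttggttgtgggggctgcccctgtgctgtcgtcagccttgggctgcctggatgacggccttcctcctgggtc
Heatr1, chr13:12395125-12395351, plus strand: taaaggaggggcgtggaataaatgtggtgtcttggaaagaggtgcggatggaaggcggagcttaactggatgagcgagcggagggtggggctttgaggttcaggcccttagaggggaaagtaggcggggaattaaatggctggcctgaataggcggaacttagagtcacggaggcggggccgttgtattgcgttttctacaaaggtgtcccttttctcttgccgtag
Nop58, chr1:59684756-59684970, plus strand: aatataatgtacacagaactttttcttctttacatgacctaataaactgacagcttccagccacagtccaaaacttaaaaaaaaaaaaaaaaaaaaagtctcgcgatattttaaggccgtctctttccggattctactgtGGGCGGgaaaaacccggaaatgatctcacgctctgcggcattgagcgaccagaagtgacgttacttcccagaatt
Wdr12, chr1:60098646-60098750, minus strand: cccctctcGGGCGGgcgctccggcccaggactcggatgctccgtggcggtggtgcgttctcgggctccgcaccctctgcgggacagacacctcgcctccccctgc
Rrn3, chr16:13780449-13780698, plus strand: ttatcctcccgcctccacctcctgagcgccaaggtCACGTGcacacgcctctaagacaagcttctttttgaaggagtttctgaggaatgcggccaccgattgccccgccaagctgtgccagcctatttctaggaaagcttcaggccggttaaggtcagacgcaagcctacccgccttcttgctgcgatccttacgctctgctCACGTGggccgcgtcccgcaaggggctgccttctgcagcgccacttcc
Nop2, chr6:125131633-125131882, plus strand: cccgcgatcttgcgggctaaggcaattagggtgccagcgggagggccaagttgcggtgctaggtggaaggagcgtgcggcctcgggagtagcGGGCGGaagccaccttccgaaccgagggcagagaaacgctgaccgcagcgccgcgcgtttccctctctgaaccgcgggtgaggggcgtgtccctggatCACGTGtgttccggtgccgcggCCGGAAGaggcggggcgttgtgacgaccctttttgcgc

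The E-boxes of Rrn3 begin 215 and 48 bases before the start, and that of Nop2 begins 60 bases before it. The stretch of Heatr1 lies in an intron of the gene as GENCODE draws it, since that annotation has an earlier start than RefSeq. Upstream bases of Noc4l were not printed because they overlap exons of Ddx51. Both strands were searched from 250 bases before to 50 bases after the start. A gene counted if the box was present at any of its RefSeq starts, of which Rrp1b has 2 and Wdr12 has 3. An E-box was present in 11 of 39 members (28.2%) and in 8.09% of 27025 genes. In the 250 upstream bases alone it was present in 3 members (7.69%), Imp4, Nop2 and Rrn3, and in 6.86% of all genes. The SP1 box was present in 31 of 39 members (79.5%) and 38.2% of all genes over the whole window. The ETS box was present in 15 members (38.5%) and 9.93% of all genes, and the YY1 box (ATGGCGGC or GCCGCCAT) in 5 members (12.8%) and 2.61%. Over the whole window, 89 other ribosome biogenesis genes had the E-box in 15.7%, the SP1 box in 60.7%, the ETS box in 47.2% and the YY1 box in 7.87%. For 58 ribosomal protein genes the shares were 10.3%, 62.1%, 41.4% and 6.90%. In the 250 upstream bases alone the E-box was present in 10.1% and 8.62% of these lists. All of these are matches of letters only.

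Between genes, levels were compared per length, as CPM per kilobase of exon (RPKM). The length merges all annotated exons of a gene, so this order depends on the annotation. In DMEM Npm1, a histone chaperone of the nucleolus, was the highest of the 45 at 78.2 ± 3.36 RPKM (SD, n = 2). Pes1, a subunit of the PeBoW complex of 60S maturation, followed at 32.6 ± 1.04 RPKM (SD, n = 2), and then Ncl, nucleolin, at 23.4 ± 2.16 RPKM (SD, n = 2). The lowest was Rrp1b, a nucleolar protein of the 60S pathway, at 1.58 ± 0.339 RPKM (SD, n = 2). Wdr12, at 1.74 ± 0.319 RPKM (SD, n = 2), did not differ from it beyond the spread. The merged exons span 10188 bases in Ncl and 2665 in Npm1, and 11955 in Wdr12 and 7705 in Rrp1b. By CPM, without length, Ncl (223 and 254) lay above Npm1 (202 and 215) in DMEM. Gar1, another of the 45, lay below Rrp1b by CPM there (8.04 and 6.26 beside 14.01 and 10.3).

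**Figure D1:**
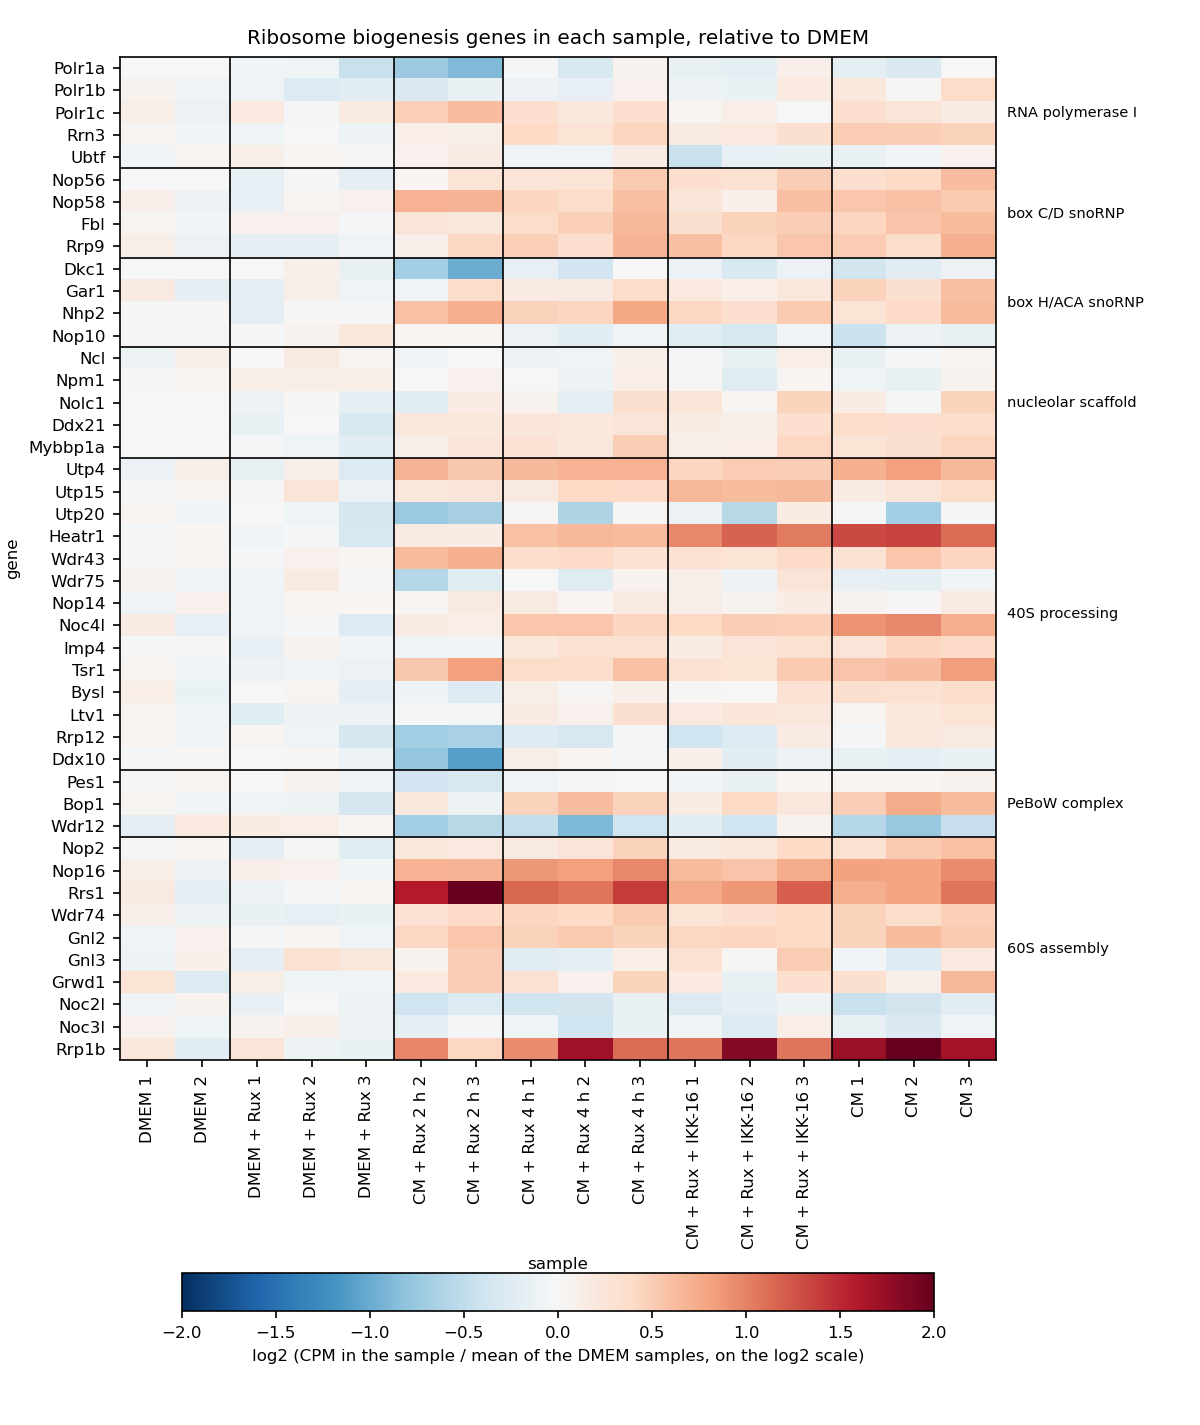
Log2 ratio of the CPM of each of the 45 genes (rows, by role) in each of the 16 samples (columns, by group) to the mean of the 2 DMEM samples, in colour from -2 to 2. Rrp1b, Heatr1 and Rrs1 have the deepest red cells, and Ddx10, Dkc1 and Polr1a are blue in the 2 h columns.

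The comparison of CM with DMEM asked what the tumor cells' medium does to these genes. The study's methods grew 4T1 cells in a medium with RPMI and do not state the base of CM. If that base was not DMEM, it cannot be told apart from what the tumor cells released. In CM 12 of the 45 genes rose and 1 fell, called at an adjusted p below 0.05 (edgeR, Benjamini-Hochberg over 12372 genes) and a log2 fold change beyond 0.5. Rrp1b, Heatr1, Noc4l, Rrs1, Nop16, Utp4, Tsr1, Bop1, Nop58, Fbl, Gnl2 and Rrp9 rose, and Wdr12 fell. That is 26.7% higher, beside 20.9% of all genes, and 2.22% lower, beside 24.1%. On adjusted p alone 25 were higher and 2 lower (55.6% and 4.44%), beside 31.4% and 30.4% of all genes. The median log2 fold change was 0.35 for the 45 genes and -0.0050 for all genes.

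These counts depended on the scaling, since log2 fold changes were higher with RLE than with total counts alone by a median of 0.31. With total counts alone 5 of the 45 were called higher (Heatr1, Noc4l, Nop16, Rrp1b and Rrs1) and 4 lower (Dkc1, Noc2l, Nop10 and Wdr12). The median was 0.04. Of 12372 genes 1536 were called higher on that scale and 4606 lower. The share of calls that were higher went from 92.3% to 55.6% among the 45 and from 46.4% to 25.0% among all genes. The 45 genes took up 0.223 ± 0.0141% of the counts in CM (SD, n = 3) and 0.232% in both DMEM samples. On the RLE scale they summed to 2421 ± 102 CPM (SD, n = 3) and 2030 ± 24.8 CPM (SD, n = 2).

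**Figure D2:**
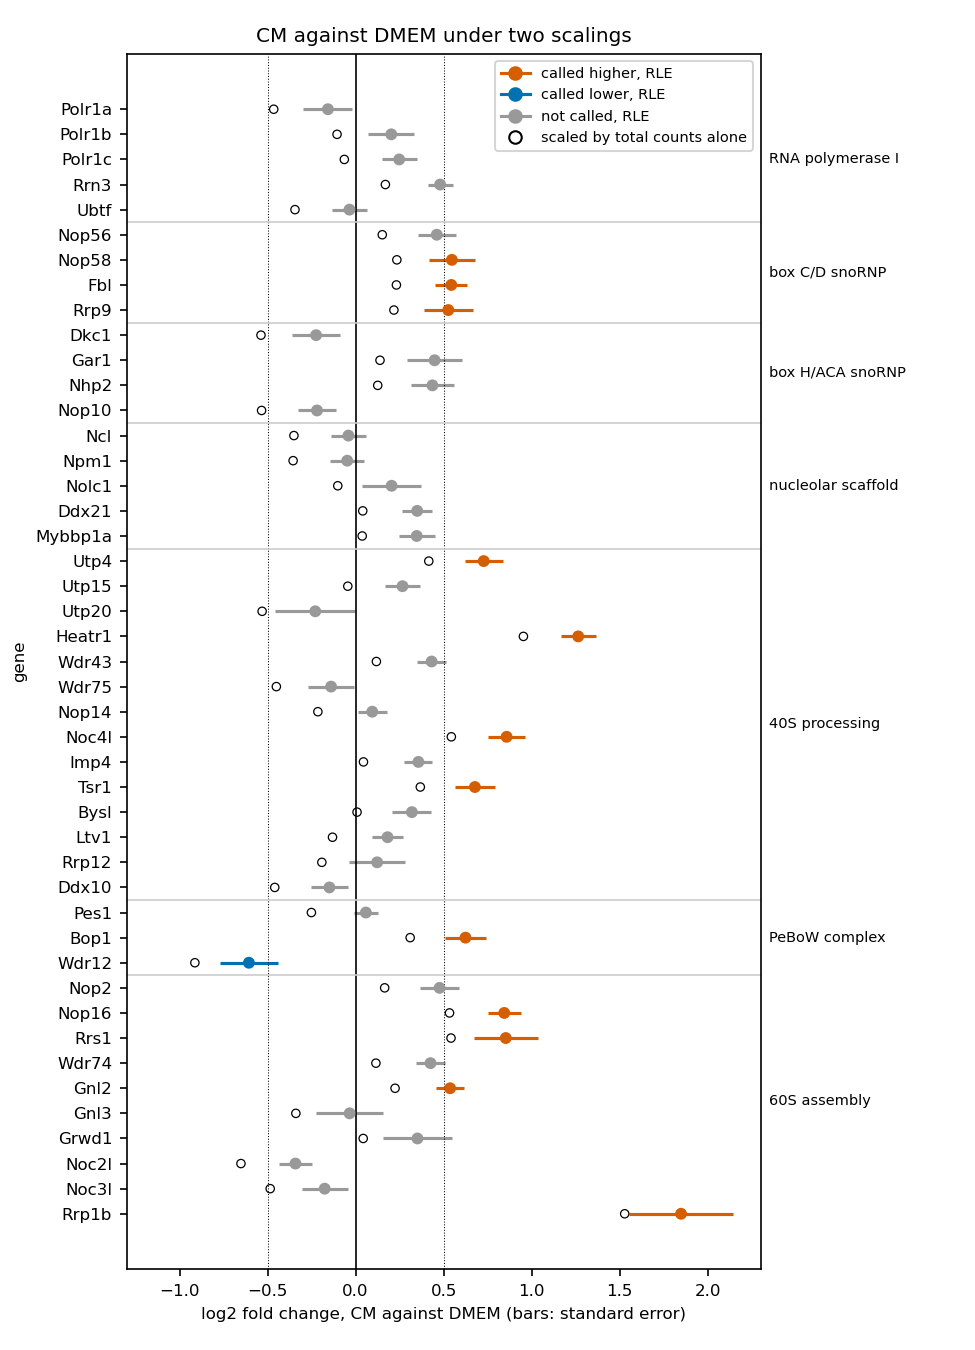
Log2 fold change of CM against DMEM (x axis) for each of the 45 genes (y axis, by role), with filled points for RLE, bars for the standard error, open circles for total counts alone and dotted lines at -0.5 and 0.5. The open circles lie about 0.31 to the left of the filled points, and Rrp1b and Heatr1 lie beyond 0.5 on both scales.

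Of the 5 genes of RNA polymerase I transcription, 0 were called in CM. Rrn3, the factor that brings the polymerase to its promoter, was at 61.5, 60.7 and 59.6 CPM in CM and 45.2 and 41.6 CPM in DMEM. The groups did not overlap, but the log2 fold change of 0.48 ± 0.07 (SE, adjusted p = 5.32e-05, edgeR) lay under the fold threshold. Polr1a, the largest subunit, was at 38.7, 35.6 and 43.3 CPM in CM and 43.8 and 43.5 CPM in DMEM, with a log2 fold change of -0.16 ± 0.14 (SE, adjusted p = 0.343, edgeR). These groups did not overlap either. With 3 samples against 2, most of the 45 genes did not overlap, called or not. A lack of overlap therefore does not set the called genes apart, and its share over all genes was not counted.

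The box C/D snoRNP, which methylates ribosomal RNA, had 3 of its 4 genes rise. Its scaffold protein gene Nop58 was at 34.2, 35.1 and 33.6 CPM in CM and 25.1 and 21.9 CPM in DMEM, without overlap, a log2 fold change of 0.55 ± 0.13 (SE, adjusted p = 0.00246, edgeR). Fbl, the methylase fibrillarin, rose by 0.54 and Rrp9, of the U3 snoRNP, by 0.53, while Nop56 (0.46) lay under the fold threshold. With total counts alone these 3 rises were 0.23, 0.23 and 0.22 and were not called. The 3 calls were also lost without DMEM replicate 2, and that of Rrp9 without CM replicate 3 (0.43). The box H/ACA snoRNP, which makes pseudouridine, had 0 calls among 4 genes. Its enzyme gene Dkc1 was at 7.73, 8.62 and 9.16 CPM in CM and 9.93 and 9.99 CPM in DMEM, without overlap, with a log2 fold change of -0.22 ± 0.14 (SE, adjusted p = 0.166, edgeR).

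Among 5 nucleolar scaffold genes 0 were called. Ncl was at 216, 233 and 247 CPM in CM and 223 and 254 CPM in DMEM, and Npm1 at 197, 189 and 219.8 and 202 and 215 CPM. Both pairs of groups overlapped, with log2 fold changes of -0.04 ± 0.10 (SE, adjusted p = 0.737, edgeR) and -0.05 ± 0.10 (SE, adjusted p = 0.684, edgeR). The helicase Ddx21 (0.35, adjusted p = 0.00306, edgeR) and Mybbp1a (0.35, adjusted p = 0.0094, edgeR) lay under the fold threshold.

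Of 14 genes of 40S processing, 4 rose. Heatr1 (chr13:12395027-12440289, GRCm38), of the small subunit processome, was at 126, 128 and 109 CPM in CM and 48.8 and 51.8 CPM in DMEM, a log2 fold change of 1.26 ± 0.10 (SE, adjusted p = 1.85e-07, edgeR). Noc4l, a nuclear 40S factor, was at 42.2, 43.9 and 37.3 CPM in CM and 25.2 and 20.2 CPM in DMEM, with a log2 fold change of 0.86 ± 0.10 (SE, adjusted p = 9.32e-06, edgeR). For both genes every CM sample lay above both DMEM samples. Utp4, of the processome, rose by 0.73 and Tsr1, a late pre-40S factor, by 0.68. The other 10 lay between -0.23 (Utp20) and 0.43 (Wdr43).

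The PeBoW complex of Pes1, Bop1 and Wdr12, which acts in 60S maturation, had 1 gene called in each direction. Bop1 was at 64.6, 76.98 and 71.3 CPM in CM and 48.03 and 44.1 CPM in DMEM, with a log2 fold change of 0.62 ± 0.12 (SE, adjusted p = 3.62e-04, edgeR). Wdr12 was at 13.9, 12.2 and 15.03 CPM in CM and 18.1 and 23.5 CPM in DMEM, with a log2 fold change of -0.61 ± 0.16 (SE, adjusted p = 0.00548, edgeR). Neither pair of groups overlapped. Without DMEM replicate 2 the log2 fold change of Wdr12 was -0.41 and not called. Pes1, at 103, 101 and 104 CPM in CM and 96.5 and 101 CPM in DMEM, did not overlap either and was not called (0.06).

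Of 10 genes of 60S assembly, 4 rose. Rrp1b (chr17:32036100-32062865, GRCm38) had the largest rise of the 45, at 39.6, 53.8 and 38.3 CPM in CM and 14.01 and 10.3 CPM in DMEM, with a log2 fold change of 1.85 ± 0.30 (SE, adjusted p = 1.06e-04, edgeR). Rrs1 (chr1:9545408-9547455, GRCm38), which helps bring the 5S particle into the large subunit, was at 33.8, 34.97 and 42.4 CPM in CM and 23.02 and 17.9 CPM in DMEM, with a log2 fold change of 0.85 ± 0.18 (SE, adjusted p = 0.00107, edgeR). Nop16 was at 30.7, 30.3 and 33.8 CPM in CM and 19.1 and 16.1 CPM in DMEM, with a log2 fold change of 0.84 ± 0.09 (SE, adjusted p = 3.59e-06, edgeR). In none of the 3 did the groups overlap, as in most of the 45 genes. Gnl2, a nucleolar GTPase, rose by 0.54, a call lost without CM replicate 2 or DMEM replicate 1. Noc2l was at 64.6, 68.3 and 75.8 CPM in CM and 84.1 and 92.3 CPM in DMEM, with a log2 fold change of -0.34 under the fold threshold.

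**Figure D3:**
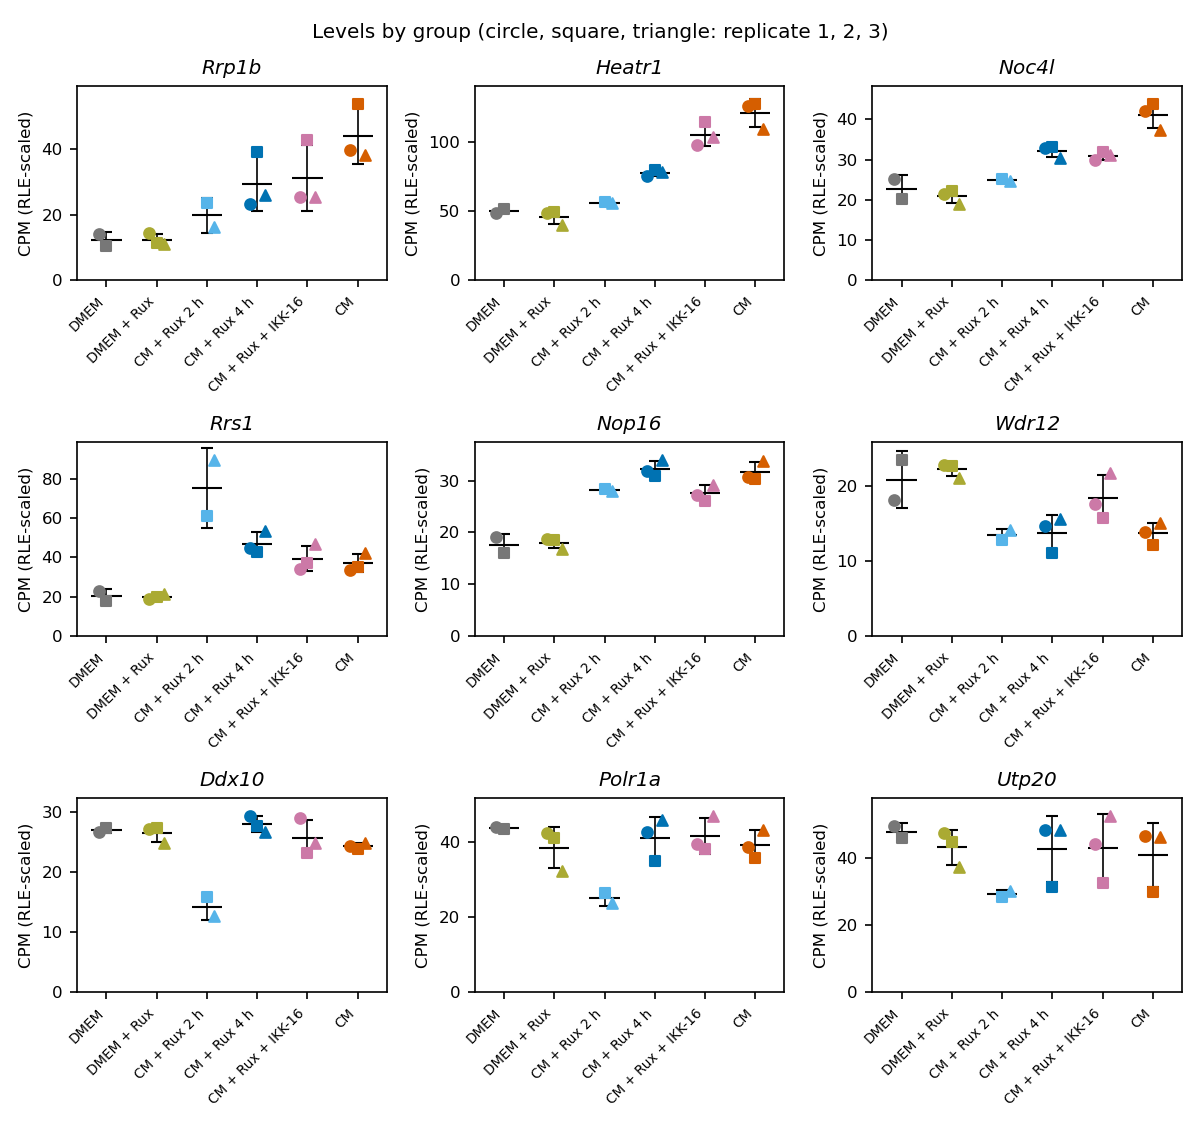
CPM on the RLE scale (y axis, from 0) of 9 genes in the 6 groups (x axis), with circles, squares and triangles for replicates 1, 2 and 3, a line for the mean and bars for the SD. Heatr1 is highest in CM, Rrs1 is highest and Ddx10 lowest at 2 h, and in the CM groups of 3 samples the squares are highest for Rrp1b and lowest for Utp20.

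Rrp1b and Utp20 set the samples numbered 2 apart. In the groups with CM and 3 samples, Rrp1b was highest in replicate 2, at 53.8 CPM in CM, 39.1 in CM + Rux 4 h and 42.7 in CM + Rux + IKK-16, where the others lay between 23.2 and 39.6 CPM. Utp20, a processome scaffold, was lowest in the same samples, at 29.7, 31.3 and 32.4 CPM, where the others lay between 44.0 and 52.6 CPM. Without the samples numbered 2, an alternative added after the data were seen, Rrp1b rose by 1.47 in CM. That alternative left only DMEM replicate 1 in DMEM, where Rrp1b was at 14.01 CPM, beside 10.3 CPM in DMEM replicate 2.

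The comparison of CM + Rux 4 h with CM asked what JAK inhibition does in tumor medium. Of the 45 genes 1 fell and 0 rose. Heatr1 was at 75.6, 79.8 and 78.02 CPM with ruxolitinib and 126, 128 and 109 CPM without it, and the groups did not overlap. Its log2 fold change was -0.64 ± 0.09 (SE, adjusted p = 6.34e-04, edgeR). That is 2.22% lower, beside 2.13% of all genes, while 1.2% of all genes were higher. On adjusted p alone 2 were lower and 0 higher, beside 2.74% and 1.82% of all genes. The second was Noc4l, at 33.02, 33.1 and 30.3 CPM with ruxolitinib, with a log2 fold change of -0.36 ± 0.09 (SE, adjusted p = 0.0398, edgeR). Rrp1b did not pass the test, having a log2 fold change of -0.57 ± 0.25 (SE, adjusted p = 0.265, edgeR), and the median of the 45 was -0.04. With the replicate number as a block, Rrp1b had a log2 fold change of -0.59 (adjusted p = 0.0585, edgeR). On adjusted p alone the block added Polr1b (-0.27, adjusted p = 0.0444, edgeR) and Tsr1 (-0.24, adjusted p = 0.0256, edgeR), both lower. It also added Rrs1, higher (0.34, adjusted p = 0.0238, edgeR). These lay under the fold threshold.

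In DMEM, ruxolitinib gave 0 calls among the 45 by edgeR and 0 by DESeq2, with 0 at an unadjusted p under 0.05. Of all genes 0% were higher and 0.97% lower, or 1.03% lower on adjusted p alone. Heatr1 was at 48.3, 48.99 and 40.1 CPM with ruxolitinib and 48.8 and 51.8 CPM without it. The interaction, which tests whether ruxolitinib acted differently in the 2 media, gave 0 calls by edgeR and 0 by DESeq2, with 1 at an unadjusted p under 0.05. Of all genes 0.234% were higher and 0.178% lower, or 0.242% and 0.178% on adjusted p alone. The gene with that p was Heatr1, with -0.50 ± 0.13 (SE, adjusted p = 0.123, edgeR). With the replicate number as a block it was -0.53 (adjusted p = 0.0112, edgeR) and was called. Since the dose and time of ruxolitinib in DMEM are not stated, medium and exposure cannot be told apart in the interaction.

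Adding IKK-16 asked what IKK inhibition does beside ruxolitinib. It gave 0 calls among the 45 by edgeR and 0 by DESeq2, while 4.07% of all genes were called higher and 3.66% lower. At an unadjusted p under 0.05 (edgeR) there were 10 of the 45, and the share of all genes at that p was not counted. On adjusted p alone 2 were higher and 0 lower, beside 6.72% and 7.65% of all genes. With the replicate number as a block, on adjusted p alone, Heatr1, Utp15, Gnl3 (0.37) and Wdr12 (0.42, adjusted p = 0.0277, edgeR) were higher. Polr1c, Ubtf, Utp4, Bop1, Nop16 and Rrs1 were then lower, between -0.26 (Rrs1) and -0.20 (Utp4). All of these lay under the fold threshold, and the share of all genes with the block was not counted. Heatr1 was at 97.98, 114 and 103 CPM with IKK-16, above every CM + Rux 4 h sample, with a log2 fold change of 0.43 ± 0.09 (SE, adjusted p = 0.00482, edgeR). With total counts alone it was 0.52 and called. Utp15, of the processome, was at 47.5, 46.98 and 47.1 CPM with IKK-16 and 34.3, 39.7 and 39.1 CPM without it, with a log2 fold change of 0.33 ± 0.09 (SE, adjusted p = 0.0246, edgeR). These groups did not overlap either. Wdr12 was at 17.7, 15.7 and 21.8 CPM with IKK-16 and 14.6, 11.1 and 15.7 CPM without it, with a log2 fold change of 0.42 ± 0.15 (SE, adjusted p = 0.0736, edgeR), and was called only without IKK-16 replicate 2.

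Across the 6 groups Heatr1 was lowest in DMEM + Rux, at 45.8 ± 4.96 CPM (SD, n = 3), and overlapped with DMEM, at 50.3 ± 2.09 CPM (SD, n = 2). It was at 55.98 ± 0.746 CPM (SD, n = 2) in CM + Rux 2 h and at 77.8 ± 2.14 CPM (SD, n = 3) in CM + Rux 4 h. In CM + Rux + IKK-16 it was at 105 ± 8.18 CPM (SD, n = 3), overlapping with CM at 121 ± 10.3 CPM (SD, n = 3).

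CM + Rux 2 h and CM + Rux 4 h differ in their time label. At 2 h 3 of the 45 genes were lower (Ddx10, Polr1a and Dkc1) and 1 was higher (Rrs1). That is 6.67% lower, beside 10.7% of all genes, and 2.22% higher, beside 12.6%. On adjusted p alone 12 were lower (26.7%) and 2 higher (4.44%), beside 20% and 18.2% of all genes. The median was -0.11 for the 45 and -0.03 for all genes. With total counts alone 6 were lower, Bop1, Heatr1 and Rrp12 being added, and 1 was higher. Of 12372 genes 1704 were lower on that scale and 1339 higher. The share of calls that were higher went from 25% to 14.3% among the 45 and from 54.0% to 44.0% among all genes.

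Ddx10 (chr9:53098635-53248053, GRCm38), an RNA helicase of 40S processing, was at 15.9 and 12.6 CPM at 2 h and 29.4, 27.8 and 26.7 CPM at 4 h, with a log2 fold change of -0.96 ± 0.11 (SE, adjusted p = 2.14e-05, edgeR). Polr1a was at 26.5 and 23.6 CPM at 2 h and 42.6, 34.8 and 45.8 CPM at 4 h, with a log2 fold change of -0.71 ± 0.14 (SE, adjusted p = 0.00174, edgeR). Dkc1 was at 6.24 and 5.02 CPM at 2 h and 8.87, 7.63 and 9.92 CPM at 4 h, with a log2 fold change of -0.62 ± 0.14 (SE, adjusted p = 0.00365, edgeR). For all 3 genes the 2 h samples were the lowest of the 16. Without 2 h replicate 3 the value of Dkc1 was -0.49 and not called.

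Rrs1 went the other way, at 61.03 and 89.6 CPM at 2 h and 44.9, 42.7 and 53.4 CPM at 4 h, with a log2 fold change of 0.68 ± 0.17 (SE, adjusted p = 0.00681, edgeR). The 2 h samples were the highest of the 16, and without 2 h replicate 3 the value was 0.38 and not called. Wdr43, of the processome, was at 59.9 and 62.99 CPM at 2 h and 49.5, 50.1 and 47.1 CPM at 4 h, with a log2 fold change of 0.33 ± 0.08 (SE, adjusted p = 0.00486, edgeR). Heatr1 was at 56.5 and 55.4 CPM at 2 h, below every 4 h sample, with a log2 fold change of -0.47 ± 0.10 (SE, adjusted p = 0.00188, edgeR). Both lay under the fold threshold. Without 4 h replicate 2, Rrp12 and Utp20 joined the genes called lower, which made 5.

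The 3 longest of the 45 genes had low values in this comparison: Ddx10 (149 kb), Utp20 (80.2 kb, -0.55, not called) and Polr1a (75.9 kb). Over the 45 genes the log2 fold change and the log2 of the gene's length had a Pearson r of -0.54 and a Spearman rho of -0.34, as a description over genes that share the same 5 libraries. Over 105 other ribosome biogenesis genes r was 0.04 and rho 0.09, and over 12372 genes r was 0.07 and rho 0.05. The 6 members among the longest genes (36.1 kb or more) had a median of -0.51, beside 0.01 for all 4124 genes of that length. Gnl2 and Wdr43 are among the 6 and had values of 0.00 and 0.33, and Dkc1 is only 13.9 kb long.

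**Figure D4:**
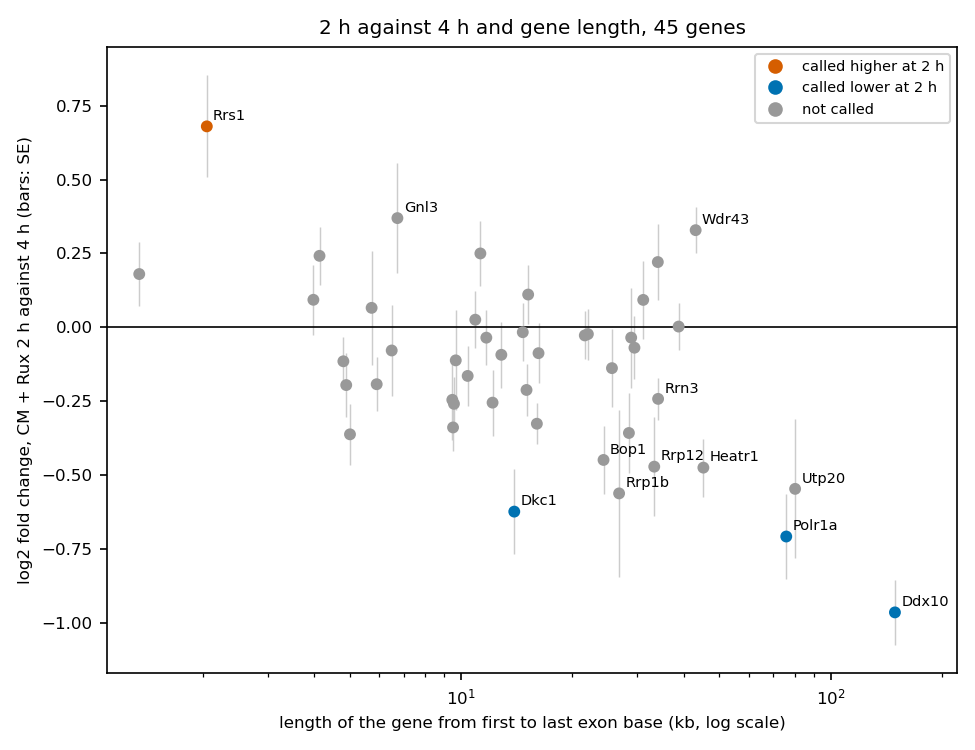
Log2 fold change of CM + Rux 2 h against CM + Rux 4 h (y axis, bars for the standard error) against gene length in kb (x axis, log scale) for the 45 genes, coloured by call. Ddx10, Polr1a and Utp20 lie at the lower right and Rrs1 at the upper left.

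CM + Rux 2 h and DMEM + Rux differ in medium and may differ in time, which is not stated for DMEM + Rux, so medium and time cannot be told apart. The comparison shares the 2 h samples with the one above. Of the 45 genes 9 rose (Gnl2, Nhp2, Nop16, Nop58, Rrp1b, Rrs1, Tsr1, Utp4 and Wdr43) and 5 fell (Ddx10, Dkc1, Polr1a, Rrp12 and Wdr12). That is 20% higher, beside 18.4% of all genes, and 11.1% lower, beside 21.7%. On adjusted p alone 19 were higher and 8 lower, beside 27.3% and 29.6% of all genes. With total counts alone, which lowered the log2 fold changes by a median of 0.37, 1 was higher (Rrs1) and 10 were lower. Of 12372 genes 1377 were higher on that scale and 5044 lower. The share of calls that were higher went from 64.3% to 9.09% among the 45 and from 45.9% to 21.4% among all genes, and the median of the 45 went from 0.18 to -0.19. The 5 falls and the rise of Rrs1 were called on both scales, and the other 8 rises with RLE only.

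Rrs1 rose most, from 18.7, 19.8 and 21.2 CPM in DMEM + Rux, with a log2 fold change of 1.92 ± 0.17 (SE, adjusted p = 6.30e-07, edgeR), or 1.55 with total counts alone. Tsr1 was at 45.1 and 54.9 CPM at 2 h and 28.6, 29.5 and 28.6 CPM in DMEM + Rux, with a log2 fold change of 0.79 ± 0.11 (SE, adjusted p = 3.37e-05, edgeR). Rrp1b was at 23.6 and 16.1 CPM at 2 h and 14.4, 11.2 and 11.01 CPM in DMEM + Rux, with a log2 fold change of 0.72 ± 0.28 (SE, adjusted p = 0.0422, edgeR). The call of Rrp1b was lost without 2 h replicate 2 (0.40), DMEM + Rux replicate 2 (0.66) or DMEM + Rux replicate 3 (0.66).

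Of the genes that fell, Ddx10 was at 27.1, 27.4 and 24.8 CPM in DMEM + Rux, with a log2 fold change of -0.88 ± 0.11 (SE, adjusted p = 1.20e-05, edgeR). Dkc1 was at 9.88, 10.6 and 8.94 CPM in DMEM + Rux, with a log2 fold change of -0.79 ± 0.14 (SE, adjusted p = 3.27e-04, edgeR). Wdr12 was at 12.8 and 14.1 CPM at 2 h and 22.9, 22.7 and 21.1 CPM in DMEM + Rux, with a log2 fold change of -0.73 ± 0.17 (SE, adjusted p = 0.00221, edgeR). In none of the 3 did the groups overlap. At 4 h in CM + Rux, Ddx10 was at 27.96 ± 1.35 CPM (SD, n = 3) and Polr1a at 41.1 ± 5.66 CPM (SD, n = 3), beside 26.4 ± 1.39 CPM (SD, n = 3) and 38.5 ± 5.47 CPM (SD, n = 3) in DMEM + Rux. The call of Rrp12 (-0.55) was lost without 2 h replicate 2 (-0.53) or DMEM + Rux replicate 1 (-0.47), and that of Gnl2 (0.51) without 2 h replicate 3 (0.44) or DMEM + Rux replicate 3 (0.49).

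Other genes of the pathway were counted by lists. Of 105 other ribosome biogenesis genes 26 rose and 2 fell in CM (24.8% and 1.90%, beside 20.9% and 24.1% of all genes), with a median of 0.22. With total counts alone 4 rose and 12 fell, beside 1536 and 4606 of 12372 genes. Rcl1, of 18S processing, rose most, by 1.90 on the log2 scale, with a level of 43.7 ± 3.97 CPM (SD, n = 3) in CM beside 11.7 ± 0.581 CPM (SD, n = 2) in DMEM, and Nol8 fell most (-0.62). With ruxolitinib in CM 0 rose and 1 fell (0% and 0.952%, beside 1.2% and 2.13% of all genes). That gene was the helicase Ddx24, whose level was 95.8 ± 1.52 CPM (SD, n = 3) with the inhibitor and 149 ± 18.9 CPM (SD, n = 3) without it. With IKK-16 added 1 rose and 2 fell (0.952% and 1.90%, beside 4.07% and 3.66% of all genes). They were led by Nat10 (0.54) and Rcl1, the latter at 19.7 ± 1.997 CPM (SD, n = 3) with IKK-16 and 44.6 ± 3.94 CPM (SD, n = 3) without it. At 2 h against 4 h 1 was higher (Sbds, 0.53) and 7 lower, led by the RNA polymerase I subunit gene Cd3eap at 17.6 ± 0.661 CPM (SD, n = 2) and 29.8 ± 3.56 CPM (SD, n = 3). That is 0.952% and 6.67%, beside 12.6% and 10.7% of all genes. On the scale of total counts alone 0 were higher and 14 lower, with Sbds at 0.46, beside 1339 and 1704 of 12372 genes. At 2 h against DMEM + Rux 13 rose and 7 fell (12.4% and 6.67%, beside 18.4% and 21.7% of all genes). With total counts alone 6 rose and 31 fell, beside 1377 and 5044 of 12372 genes. In DMEM ruxolitinib gave 0 calls among the 105.

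Of 79 ribosomal protein genes 3 rose and 0 fell in CM (3.80% and 0%, beside 20.9% and 24.1% of all genes), with a median of 0.06. Between 2 h and 4 h 0 were called, while 12.6% of all genes were higher and 10.7% lower at 2 h. With total counts alone 1 rose and 5 fell in CM. Fragments with several alignments were left out, and these genes have near-identical copies, so their levels are uncertain. Of 11 tested genes of the RNA exosome, which trims ribosomal RNA, Exosc3 rose (0.60) and Exosc7 fell (-0.70) in CM. That is 9.09% each way, beside the same 20.9% and 24.1% of all genes. With total counts alone 0 of the 11 rose and 3 fell.

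**Figure D5:**
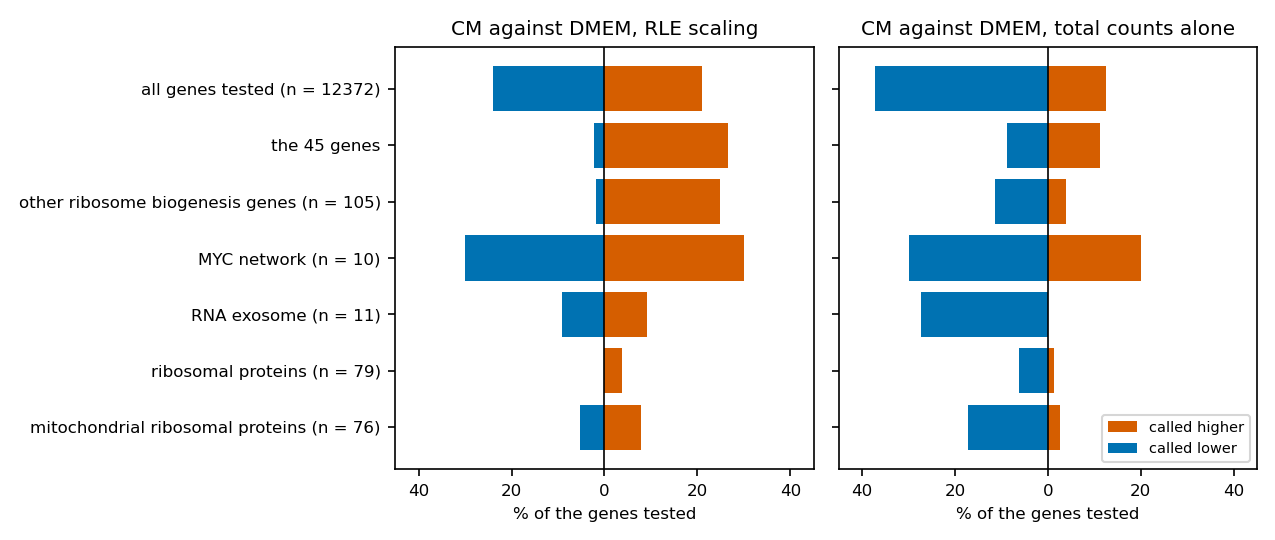
Percentage of the genes tested in each list (y axis) that were called higher (to the right of 0) and lower (to the left) in CM against DMEM, with RLE (left panel) and with total counts alone (right panel). With RLE 26.7% of the 45 genes and 24.8% of the 105 others were higher, and with total counts alone the bars to the left grow for all genes, the 45, the 105, the RNA exosome and both ribosomal protein lists.

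Myc was at 32.7, 41.03 and 43.2 CPM in CM and 12.9 and 14.1 CPM in DMEM, with a log2 fold change of 1.54 ± 0.25 (SE, adjusted p = 1.09e-04, edgeR). It was at 27.3, 40.2 and 38.5 CPM in CM + Rux 4 h, 25.3, 42.3 and 44.02 CPM in CM + Rux + IKK-16 and 47.6 and 38.8 CPM in CM + Rux 2 h, so the groups with CM overlapped. In DMEM + Rux it was at 13.9, 17.6 and 20.2 CPM. Of 10 tested genes of the MYC network 3 rose and 3 fell in CM (30% each), beside 20.9% and 24.1% of all genes. Mxi1, an antagonist of MYC, had the largest rise (3.16) and Mxd4, of the same family, the largest fall (-3.23). With IKK-16 added 0 of the 10 rose and 1, Mycl, fell, beside 4.07% and 3.66% of all genes. Mycl was low, at 1.82 ± 0.574 CPM (SD, n = 3) with IKK-16 and 7.18 ± 3.08 CPM (SD, n = 3) without it.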

How the data were processed

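RNA-seq of 16 BMDM samples in 6 groups was analysed. The authors trimmed reads with Trimmomatic 0.33, aligned them to GRCm38 with HISAT2 2.1.0 and counted fragments per gene with featureCounts 1.6.2 on Ensembl 100, by strand and without fragments of several alignments or genes. They deposited raw counts, with no scaling. Symbols came from GENCODE M21 on the same build (55141 identifiers matched). Exons of 4 members (Gnl3, Ncl, Nop56 and Nop58) overlap small RNA genes on the same strand, where shared fragments went uncounted.

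Counts were scaled by RLE. Genes over 1 CPM in 2 or more samples entered one edgeR 4.0.16 quasi-likelihood model of the 6 groups (limma 3.58.1, R 4.3.3). The thresholds on adjusted p (0.05) and log2 fold change (0.5) follow the study's methods, and the code was tested on simulated data. Alternatives were TMM, total counts alone, other filters, a replicate block, smaller models, DESeq2 1.42.0, no fold threshold and each sample left out. Full statistics go to the 3 largest called rises and falls of a comparison and, for CM against DMEM and 2 h against 4 h, to the leading called gene of each role and those against the majority. Values of members not called were chosen after they were seen. The members and lists were chosen with earlier results of these data known.

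Replicate numbers paired the samples of CM, CM + Rux 4 h and CM + Rux + IKK-16, since deviations from the group means correlated at 0.53 to 0.72 in each pair. Whether replicates were separate animals or cultures is not stated, so p-values measure the spread between these samples, which may be technical.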

Additional observations from a re-analysis of the deposited data

How the results depend on the processing

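Of 32 calls of a gene in a comparison, 13 held under all 24 alternatives and 0 reversed. All 32 held under TMM, DESeq2, both other filters and a model of the compared groups, 29 with the replicate block, 25 without the samples numbered 2 (added after the data were seen) and 17 with total counts alone. Total counts alone gave 5 higher and 4 lower in CM against DMEM, 1 higher with IKK-16 (Heatr1), 6 lower at 2 h against 4 h, and 1 higher and 10 lower at 2 h against DMEM + Rux, with medians of 0.04 (CM), 0.05 (IKK-16), -0.18 (2 h against 4 h) and -0.19 (2 h against DMEM + Rux). Without a fold threshold, which admits smaller changes by construction, there were 25 higher and 2 lower in CM, 2 lower with ruxolitinib, 2 higher with IKK-16, 2 higher and 12 lower at 2 h against 4 h, and 19 higher and 8 lower at 2 h against DMEM + Rux. With no filter 2 were lower with ruxolitinib and 5 at 2 h against 4 h. Without the samples numbered 2, 0 were lower in CM, 2 with ruxolitinib and 6 at 2 h against 4 h. The cause was not tested for the other settings. With each sample left out, 10 to 15 were higher and 0 to 1 lower in CM (0 without DMEM replicate 2), 0 to 1 higher with IKK-16 (1 without IKK-16 replicate 2), 0 to 1 higher (0 without 2 h replicate 3) and 3 to 5 lower (5 without 4 h replicate 2) at 2 h against 4 h, and 7 to 10 higher and 4 to 6 lower at 2 h against DMEM + Rux. The median of 2 h against 4 h ranged from -0.18 to -0.06. Where leaving samples out left 1 sample in a group, that sample was assumed to vary like the other groups. Leaving out the samples numbered 2 did so for DMEM and for CM + Rux 2 h. The replicate block gave 1 lower in the interaction (Heatr1). With it Nop58 (0.497) and Rrp9 (0.47) in CM and Gnl2 (0.49) at 2 h against DMEM + Rux came under the fold threshold, Rrp1b was called lower at 2 h against 4 h (-0.59) and Utp20 at 2 h against DMEM + Rux (-0.51), and among the 105 other ribosome biogenesis genes 0 were higher and 7 lower at 2 h against 4 h. In comparisons with only 2 shared numbers the pairs correlated at 0.16 to 0.41, and 16 of 16 samples correlated best with their own number.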

Other observations

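Mitochondrial ribosomal proteins, which build the ribosome of the mitochondrion, gave 6 rises and 4 falls among 76 genes tested in CM against DMEM. That is 7.89% and 5.26%, beside 20.9% and 24.1% of all genes, and the median was 0.12. With total counts alone 2 rose and 13 fell, beside 1536 and 4606 of 12372 genes. Mrpl52 rose most. In CM it reached 57.4 ± 4.01 CPM (SD, n = 3), beside 16.8 ± 1.86 CPM (SD, n = 2) for DMEM, a difference of 1.77 on the log2 scale. Mrps6 fell most. In CM it was at 7.98 ± 0.389 CPM (SD, n = 3), beside 15.7 ± 0.0548 CPM (SD, n = 2) for DMEM. At 2 h against 4 h Mrpl45 was at 38.3 ± 4.20 CPM (SD, n = 2) and 93.05 ± 3.44 CPM (SD, n = 3), lower by the edgeR test (-1.28, adjusted p = 5.75e-07), and Mrpl48 was higher (0.64).

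In the MYC network, Mnt, a MAX partner that opposes MYC, was at 28.3 and 22.6 CPM at 2 h and at 49.4 to 98.9 CPM in the other 14 samples. Mxd4 was at 63.5 and 55.5 CPM at 2 h, 16.97, 14.6 and 18.9 CPM at 4 h and 112 and 157 CPM in DMEM. Mxi1 was highest in replicate 2 of each group with CM, at 307 CPM in CM, 347 in CM + Rux 4 h, 254 in CM + Rux + IKK-16 and 334 at 2 h, while the other samples with CM lay between 119 and 190 CPM.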
